A study of Mus musculus with 8 samples.

Results

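The liver turns cholesterol into bile acids, and the 10 enzymes described here are a selection of those that act in 4 stages of this conversion. Cyp7a1 and Cyp27a1 start the conversion by adding hydroxyl groups to cholesterol. Hsd3b7, Akr1d1 and Cyp8b1 remodel the sterol rings, and Amacr, Acox2 and Scp2 shorten the side chain in peroxisomes. Slc27a5 and Baat join the finished acid to taurine or glycine. Bile acids that return to the liver are known to repress this pathway through the nuclear receptor FXR (Nr1h4) and its target Nr0b2, and Cyp7a1 and Cyp8b1 are textbook targets of that repression. The genes were taken by name, and all 10 were on the array among 19505 named genes. They were covered by 13 probes, each printed once.

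Hepatic RNA was measured in 8 male wild-type mice, C57BL/6 in the labels and C57BL/6J in the study's methods, with 1 array per mouse. The STD group (n = 4) ate standard chow and the ATH group (n = 4) an atherogenic diet, labelled high-fat/high-cholesterol, for 4 weeks, starting at 14 to 17 weeks of age by the labels (the methods give a wider range). The ATH diet also contained 0.5% cholic acid, a bile acid that is itself an end product of this pathway, so the effects of added cholesterol, fat and bile acid cannot be told apart. Each diet had a slide of its own, which means that a difference between slides cannot be told apart from one between diets.

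The scaled log2 signal used throughout is a probe's log2 intensity minus the 75th percentile of its own array, so 0 is the 75th percentile, and levels of different probes are not compared. A gene is said to have changed where limma gave a Benjamini-Hochberg adjusted p under 0.05 over all 31062 probes tested, and a gene with several probes is read from the brightest. By that rule 3 of the 10 enzymes fell with the ATH diet, Cyp8b1, Akr1d1 and Cyp27a1, and 0 rose. Of all 16562 genes tested, 5.30% fell and 4.05% rose. At the 1% rate used in the study's methods, 0 of the 10 passed, against 0.380% of all genes lower and 0.260% higher. An unadjusted limma p under 0.05 was found for 4 of the 10, beside 11 of 18 hepatocyte markers and 5 of 15 feedback genes described below. Such values were thus also found outside the enzymes. The share of all genes at that unadjusted threshold was not counted. Such counts, here and for the lists below, therefore say nothing particular about their genes. The unequal-variance analysis that the methods name, with the same adjustment, called 0 of the 10 at 5%, and only 22 of all probes. The median of the 10 log2 fold changes was -0.43 and that of all genes -0.14, and all 10 values were below 0, as were 65.1% of all genes. Every ATH array was below every STD array for 4 of the 10, against 14.6% of all genes. In whole liver, fewer cells of a type and less RNA per cell cannot be told apart.

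The sequences below are those of the probes that the account turns on: Cyp8b1, which fell the most, the dimmer of the 2 Cyp7a1 probes, and the probes of Acox2, Slc27a5 and Baat, which stand for the later steps. Each has at least 1 reading frame without a stop codon along its 60 bases. Positions are those of the array design, on mouse build mm7, and all of these probes lie on the minus strand.
Cyp8b1 (chr9:121617140-121617199): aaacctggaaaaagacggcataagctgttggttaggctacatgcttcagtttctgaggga
Cyp7a1, dimmer probe (chr4:6195632-6196238): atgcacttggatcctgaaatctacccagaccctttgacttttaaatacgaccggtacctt
Acox2 (chr14:6034599-6038988): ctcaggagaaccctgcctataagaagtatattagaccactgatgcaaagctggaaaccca
Slc27a5 (chr7:11575156-11575215): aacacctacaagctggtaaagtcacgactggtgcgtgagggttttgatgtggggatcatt
Baat, dimmer probe (chr4:49503875-49503934): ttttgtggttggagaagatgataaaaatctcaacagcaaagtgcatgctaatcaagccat
The dimmer Cyp7a1 probe spans 607 genomic bases and the Acox2 probe 4390, far more than their own length, as for a probe that crosses a splice junction. The brighter Baat probe, from which that gene is read, is given only 12 genomic bases (chr4:49503287-49503298), fewer than its 60. Why its position is so short could not be looked up. The brighter Cyp7a1 probe lies at chr4:6193456-6193515 on the same strand and has 0 open reading frames. The Cyp27a1 probe lies at chr1:74975310-74975369 and the Akr1d1 probe at chr6:37498455-37498514, both on the plus strand.

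**Figure D1:**
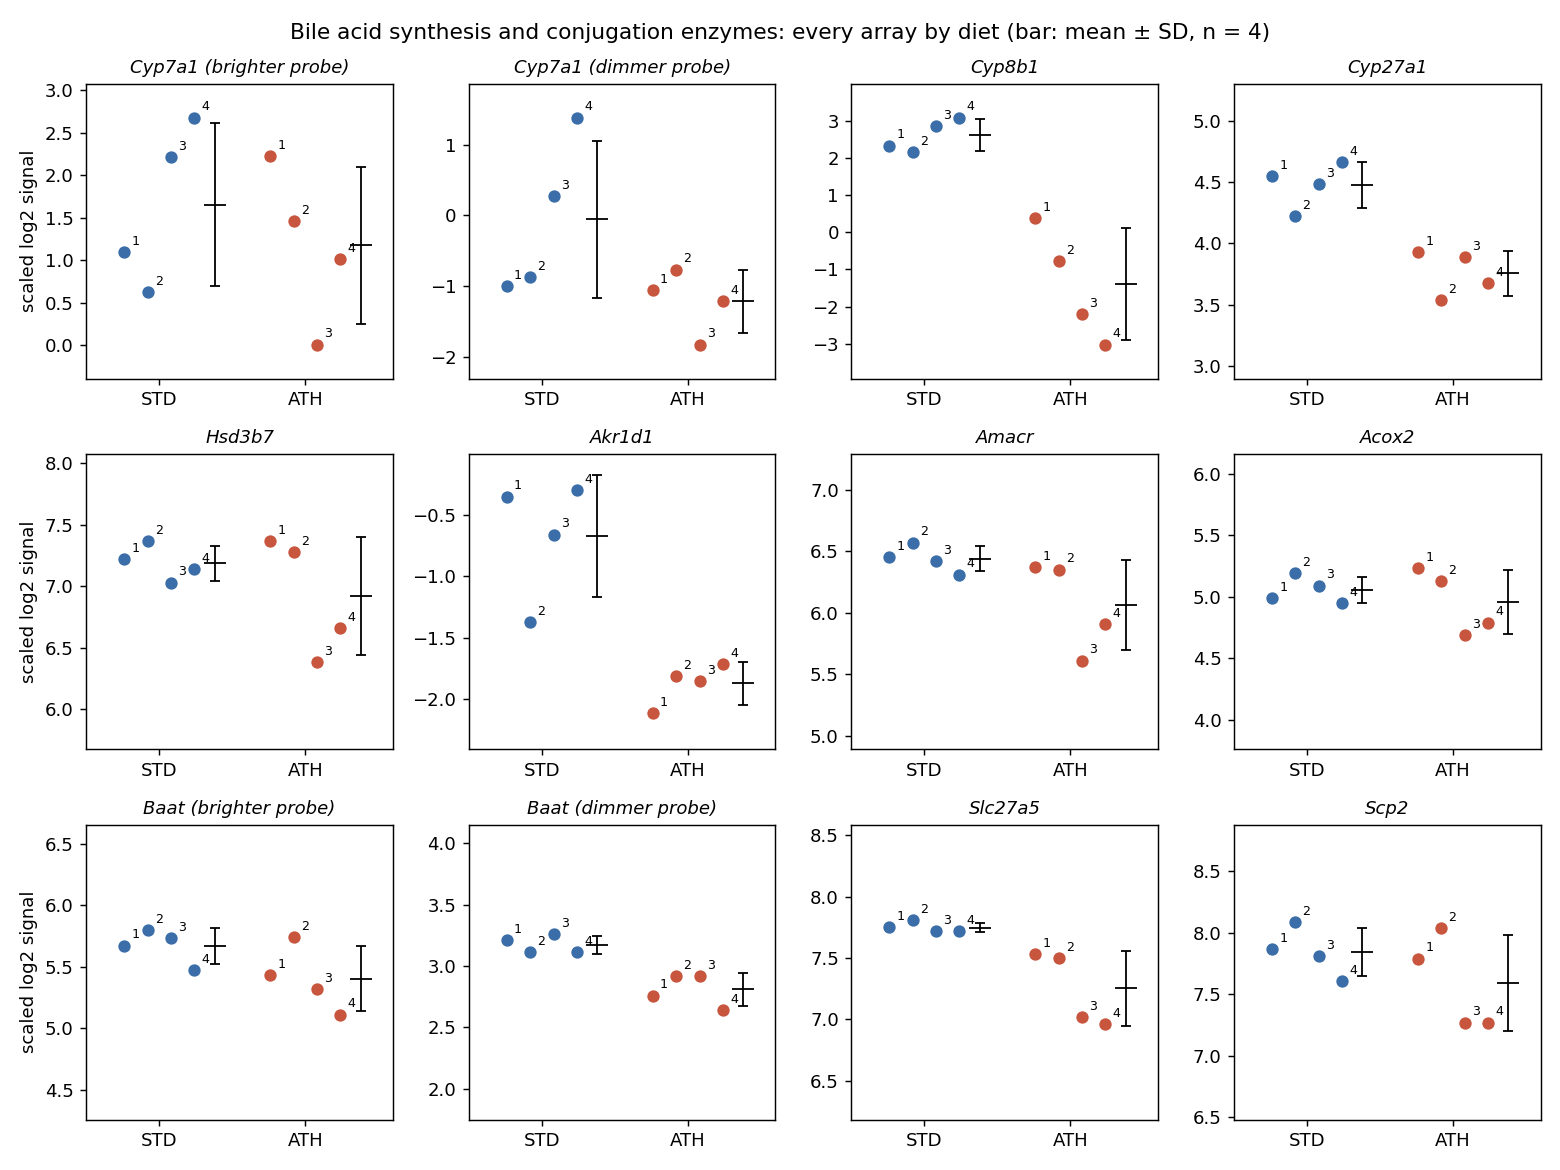
Scaled log2 signal (y axis, a separate range for each probe) of the 12 detected probes of the 10 enzymes on every array, by diet (x axis). Points are single mice with their replicate number, and the black bar is the mean ± SD of 4. The 4 ATH arrays lie below all STD arrays for Cyp8b1, Cyp27a1, Akr1d1, Slc27a5 and the dimmer Baat probe. In the panels of Hsd3b7, Amacr, Acox2, Slc27a5, Scp2 and the brighter Baat probe, ATH replicates 3 and 4 are the lowest of the 8.

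Cyp8b1, the sterol 12-alpha-hydroxylase that sets the share of cholic acid among the bile acids made, fell 16.0-fold (95% interval 5.76 to 44.6). Its scaled log2 signal was 2.33, 2.16, 2.86 and 3.08 in STD replicates 1 to 4 and 0.39, -0.77, -2.19 and -3.02 in ATH replicates 1 to 4. The highest ATH mouse was well below the lowest STD mouse, and the ATH mice spread over a much wider range (SD 1.51) than the STD mice (SD 0.43). The log2 fold change was -4.00 ± 0.65 (SE, n = 4 per diet, limma adjusted p = 0.0164), the 2nd lowest of the 16562 genes. The probe stayed detected on all 8 arrays, so the fold is a measured value and not a bound.

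Cyp8b1 also stood apart from each of the other 9 enzymes within the arrays. A difference between 2 genes on 1 array is free of any scaling by a constant, so it does not depend on the 75th percentile. In all 9 pairs the 4 ATH arrays and the 4 STD arrays did not overlap, and the log2 fold change of Cyp8b1 lay below its partner's by 2.81 (Akr1d1) to 3.91 (Acox2), with SE from 0.56 to 0.86. Each of these had the smallest p that 8 arrays allow in a two-sided exact permutation test, 0.0286. The 9 pairs share the same Cyp8b1 values, so they are not 9 separate observations. How often Cyp8b1 would stand apart from other genes on the array was not counted. Over the 45 pairs compared, 11 reached that p, and with Benjamini-Hochberg adjustment over the 45 all 11 had p = 0.117, so 0 pairs passed 5% in this exact test. The other two were Acox2 against Amacr and Acox2 against Slc27a5. The log2 fold change of Acox2 was above that of Amacr by 0.28 ± 0.07 (SE) and above that of Slc27a5 by 0.40 ± 0.06. Among the 36 pairs without Cyp8b1 the largest difference was 1.10. A pair at the smallest p could pass the adjustment only if most of the 45 pairs were also there. The 0 pairs that passed therefore do not show that the enzymes changed alike.

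The sequence upstream of Cyp8b1 is shown because this gene changed the most. The 250 bases before its RefSeq start site (GRCm38.p6, chr9:121916306-121916555, minus strand) are printed with 2 motif matches in capitals.
Cyp8b1 upstream: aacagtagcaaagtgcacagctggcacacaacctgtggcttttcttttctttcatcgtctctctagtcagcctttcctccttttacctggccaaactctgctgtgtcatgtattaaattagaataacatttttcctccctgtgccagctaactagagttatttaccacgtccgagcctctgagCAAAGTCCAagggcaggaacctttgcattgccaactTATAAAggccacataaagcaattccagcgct
The first match, CAAAGTCCA, is a motif of the liver factor HNF4A and begins at base -67 from the start site. It occurs in 0.384% of 32851 such windows of 250 bases. The second, TATAAA, is a TATA box motif at -31, found in 12.4% of windows. Motifs were searched on both strands. Windows were at hand for 6 of the 10 genes, Cyp8b1, Cyp27a1, Hsd3b7, Akr1d1, Acox2 (2 windows) and Scp2. CAAAGTCCA was matched in the Cyp8b1 window and in none of the other 6 windows. AGGTCA, the half-site shared by many nuclear receptors and present in 14.0% of windows, occurred 2 times for Akr1d1 and once for Scp2. TCAAGGTCA and TCAAGGCCA, extended half-sites of NR5A2, and the inverted repeat bound by FXR (AGGTCA facing its mirror image across 1 base), had 0 matches in the 7 windows. TCAAGGTCA contains AGGTCA, as does one arm of the inverted repeat.

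Of the entry hydroxylases, Cyp27a1, the mitochondrial sterol side-chain hydroxylase of the alternative pathway, fell 1.65-fold (95% interval 1.31 to 2.07). Its scaled log2 signal was 4.55, 4.22, 4.48 and 4.66 in the STD mice and 3.93, 3.54, 3.89 and 3.68 in the ATH mice. The diets did not overlap and the spread was alike in both (SD 0.19 and 0.18). The log2 fold change was -0.72 ± 0.15 (SE, n = 4 per diet, limma adjusted p = 0.0284). It was -0.27 without scaling of the arrays (limma adjusted p = 0.244), where all genes had a median of 0.31. The call was also lost on the spike-in scale (adjusted p = 0.165) and after quantile normalization (adjusted p = 0.0826).

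Cyp7a1, the rate-limiting cholesterol 7-alpha-hydroxylase of the classical pathway, did not pass the test at either probe. The dimmer probe read -1.0, -0.88, 0.27 and 1.38 in the STD mice and -1.06, -0.77, -1.83 and -1.22 in the ATH mice. The STD mice alone covered a range of more than 2 log2 units, and replicates 1 and 2 of that group were as low as the ATH mice. The log2 fold change was -1.16 ± 0.50 (SE, limma adjusted p = 0.168).

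At the brighter Cyp7a1 probe the scaled log2 signal was 1.10, 0.63, 2.22 and 2.68 in the STD mice and 2.23, 1.46, 0.01 and 1.02 in the ATH mice. Here ATH replicate 1 was the second highest of the 8 and the diets overlapped almost fully. The log2 fold change was -0.48 ± 0.55 (SE, limma adjusted p = 0.598), with a 95% interval from -1.73 to 0.78. Both probes placed STD replicates 3 and 4 above STD replicates 1 and 2. The fold changes at the 2 probes differed by -0.68 ± 0.36 (SE, two-sided exact permutation test, p = 0.0857). Cyp8b1 was likewise higher in STD replicates 3 and 4 than in 1 and 2.

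Among the enzymes that remodel the sterol rings, Akr1d1, the delta4-3-oxosteroid 5-beta-reductase, fell 2.29-fold (95% interval 1.58 to 3.33). Its scaled log2 signal was -0.35, -1.37, -0.66 and -0.30 in the STD mice and -2.11, -1.81, -1.85 and -1.71 in the ATH mice. All ATH mice were at a similar low level (SD 0.17), and the STD mice were more spread (SD 0.49), with STD replicate 2 the closest to them. The log2 fold change was -1.20 ± 0.24 (SE, n = 4 per diet, limma adjusted p = 0.0260). Blocked on replicate number, Akr1d1 had an adjusted p of 0.0514, which ends the call, and 2 of the 10 enzymes remained called lower, Cyp8b1 and Cyp27a1. For Akr1d1 the adjusted p was 0.0563 on the spike-in scale and 0.0533 without scaling.

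Hsd3b7, the 3-beta-hydroxysteroid dehydrogenase that acts after the first hydroxylation, did not pass (log2 fold change -0.27 ± 0.23, limma adjusted p = 0.466). The scaled log2 signal was 7.22, 7.37, 7.03 and 7.14 in the STD mice and 7.37, 7.28, 6.38 and 6.66 in the ATH mice. ATH replicate 1 was level with the highest STD mouse, replicate 2 was within the STD range, and replicates 3 and 4 were below it.

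None of the 3 peroxisomal side-chain enzymes passed. Amacr, the racemase that readies the side chain for oxidation, had a log2 fold change of -0.38 ± 0.19 (SE, limma adjusted p = 0.216). Its scaled log2 signal was 6.45, 6.57, 6.42 and 6.31 in the STD mice and 6.37, 6.35, 5.61 and 5.91 in the ATH mice, again with ATH replicates 3 and 4 below all other arrays. Acox2, the branched-chain acyl-CoA oxidase, had the smallest change of the 10, -0.10 ± 0.15 (limma adjusted p = 0.712), with STD arrays between 4.95 and 5.19 and ATH arrays between 4.69 and 5.23. Scp2, which supplies the peroxisomal thiolase, had -0.25 ± 0.20 at its detected probe (limma adjusted p = 0.441). The other Scp2 probe was not well above background on any of the 8 arrays and was not tested.

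The conjugating enzymes did not pass either. Slc27a5, the bile acid CoA ligase, read 7.75, 7.81, 7.72 and 7.72 in the STD mice and 7.53, 7.50, 7.02 and 6.96 in the ATH mice. All ATH mice were below the very narrow STD range (SD 0.04), and the log2 fold change was -0.49 ± 0.16 (SE, limma adjusted p = 0.0885). Baat, the acyltransferase that attaches the amino acid, had -0.26 ± 0.16 at its brighter probe (limma adjusted p = 0.299) and -0.36 ± 0.12 at its dimmer one (limma adjusted p = 0.0885). The dimmer Baat probe ranged from 3.11 to 3.26 in the STD mice and from 2.64 to 2.92 in the ATH mice, with no overlap, whereas the brighter one overlapped. The fold changes at the 2 Baat probes differed by -0.10 ± 0.12 (two-sided exact permutation test, p = 0.429).

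**Figure D2:**
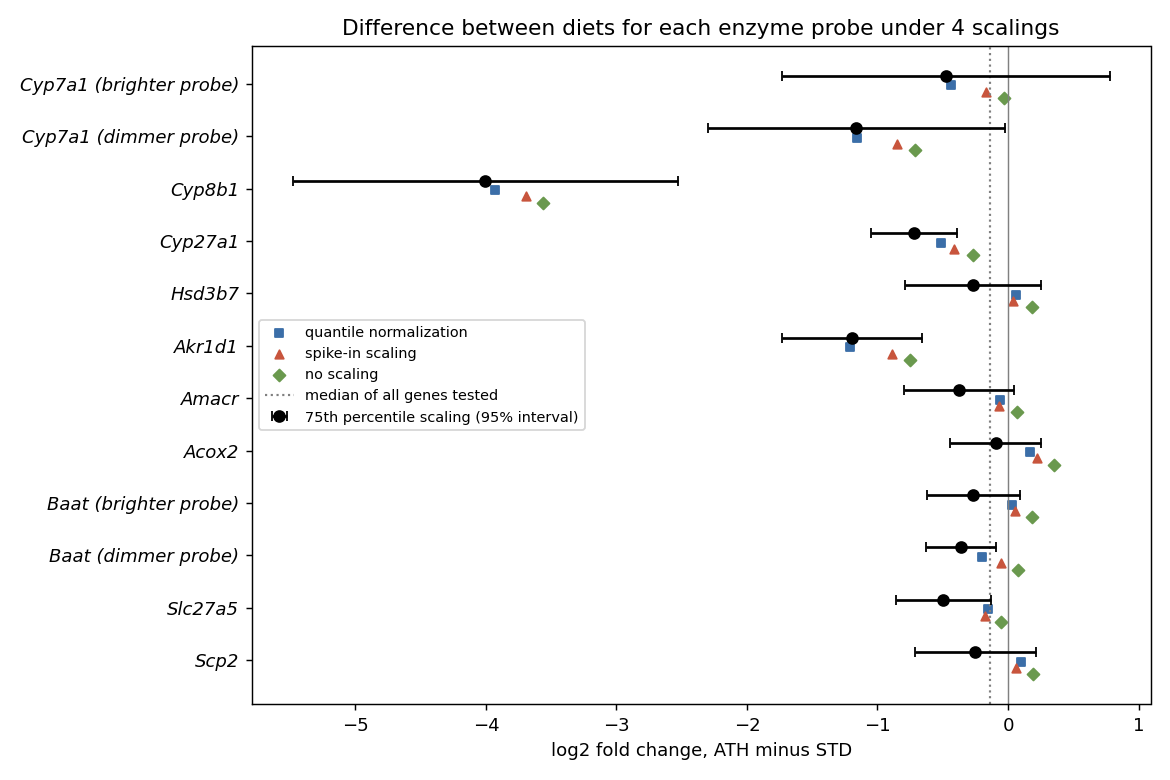
Log2 fold change between diets (x axis, ATH minus STD) of each detected probe (y axis). Black points with 95% intervals use 75th percentile scaling, and the coloured symbols below each are the same probe under quantile normalization, spike-in scaling and no scaling. Cyp8b1 at -4.00 lies far from the rest, and the points of Hsd3b7, Acox2, Scp2 and the brighter Baat probe cross 0 when the scaling changes.

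The sign of the small differences depended on the scaling. The 75th percentile was 0.45 log2 units higher in the ATH arrays and the spike-in probes 0.14 higher. Over all genes the median log2 fold change was -0.14 with the percentile, -0.03 after quantile normalization, 0.17 on the spike-in scale and 0.31 with no scaling, and the share of called genes that were lower was 56.7%, 41.3%, 12.4% and 4.97%. Of the 10 enzymes, 10, 6, 6 and 5 were then below 0, and 3, 2, 1 and 1 were called lower. Relative to all genes the median of the 10 was -0.29 with the percentile, the spike-ins or no scaling, and -0.08 with quantile normalization. The percentile, the spike-ins and no scaling differ only by a constant per array, so their equal values were fixed in advance. Cyp8b1, Akr1d1, Cyp27a1, both Cyp7a1 probes and Slc27a5 were below 0 under all 4 scalings.

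The count of 3 also depended on single mice. It was 0 without STD replicate 3, where Cyp8b1 had a limma adjusted p of 0.0532, and 1 (Cyp8b1) when replicate 1 or 4 of STD or replicate 3 or 4 of ATH was left out. Calls over all probes also fell in these fits, from 2483 to 394 without STD replicate 3. They were 432 and 502 without STD replicate 1 or 4, and 644 and 495 without ATH replicate 3 or 4.

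**Figure D3:**
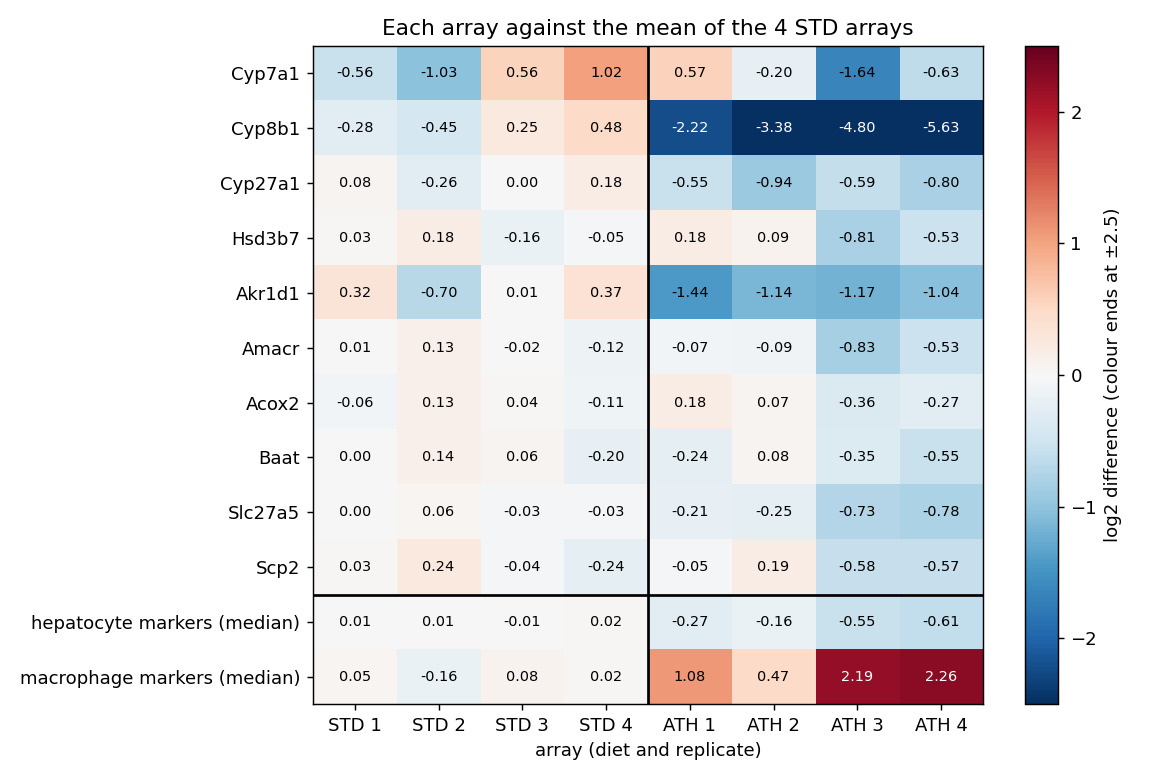
Log2 difference of each array (x axis) from the mean of the 4 STD arrays for the brightest probe of each enzyme (upper rows), with the median of 18 hepatocyte and 16 macrophage markers in the lower rows. Blue is lower and red higher, and the colour ends at ±2.5. Cyp8b1, Cyp27a1 and Akr1d1 are blue in all 4 ATH arrays, and in ATH replicates 3 and 4 all 10 enzymes are blue while the macrophage markers stand at 2.19 and 2.26.

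The ATH mice were uneven. Against the STD mean, the median of the 10 enzymes was -0.14 in ATH replicate 1, -0.14 in replicate 2, -0.77 in replicate 3 and -0.60 in replicate 4. All 10 enzymes were below the STD mean in replicates 3 and 4, against 7 in replicate 1 and 6 in replicate 2. With ATH replicates 3 and 4 left out, the log2 fold change was still -2.80 ± 0.39 for Cyp8b1 (limma adjusted p = 0.0440). It was -1.29 ± 0.32 for Akr1d1 and -0.74 ± 0.18 for Cyp27a1 (both limma adjusted p = 0.110). Without those arrays Hsd3b7, Acox2 and Scp2 had 0.14, 0.12 and 0.07, and the median of the 10 was -0.08. The setting was chosen after the values were seen.

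Marker lists of liver cell types were read on the same arrays. All 16 macrophage markers were detected and above their STD level, and 7 of them rose (0 fell). The count was 4 with the replicate block or without ATH replicate 1, and 13 with normexp background correction or without ATH replicate 2. It was 2 when any other single mouse was left out. Their summed linear level, in multiples of the array's 75th percentile, was 104 to 122 in the STD mice and 346, 197, 732 and 826 in ATH replicates 1 to 4. Of 18 hepatocyte markers, all detected on every array, 4 fell and 0 rose. That count was 1 with the replicate block, after quantile normalization, or when any 1 STD mouse, ATH replicate 3 or ATH replicate 4 was left out, and 2 on the authors' values. It was 9 with normexp background correction and 6 without ATH replicate 2. The hepatocyte markers had a median log2 fold change of -0.39, beside -0.43 for the 10 enzymes, and 16 of the 18 were below 0. On the 75th percentile scale, a downward shift of that size was thus not particular to the enzymes. Without scaling, Alb and Apoa1, both below 0 on that scale, had log2 fold changes of 0.03 and 0.35, and Tat stayed below 0 at -0.61. The sign of the smaller marker changes thus also depended on the scaling. The sum of the hepatocyte markers, which includes Alb, saturated on 2 arrays, was 6590 to 6890 in the STD mice. It was 5550, 5940, 4740 and 4400 in the ATH mice. The 8 cholangiocyte markers had a median log2 fold change of 0.04, with 4 above and 4 below 0 and 1 called higher. Their sum was 12 to 17.1 in the STD mice and 18.3 to 93.6 in the ATH mice, most of it from Spp1, which did not pass (1.5 ± 0.52, limma adjusted p = 0.103). Of 9 stellate cell markers 1 was called higher, and their medians against the STD mean were 0.37, 0.51, 0.51 and 0.32 in ATH replicates 1 to 4. Endothelial markers (1 of 8 called higher) summed to 20.7 to 29 in the STD mice and to 33.3, 33.9, 21.4 and 29 in ATH replicates 1 to 4, so replicates 3 and 4 were not the raised ones there. These 3 single calls were each lost when any 1 of the 4 STD mice was left out. The part of cell makeup in the enzyme values was not tested.

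Further genes of bile acid synthesis, on the same and on other routes, were read from a list of 11. Of these 4 fell, 1 rose and 6 did not pass, and their median was -0.45 on the log2 scale. Cyp7b1, the oxysterol 7-alpha-hydroxylase that follows Cyp27a1, fell by 1.05 ± 0.15 on the log2 scale (limma adjusted p = 0.0105). Its STD arrays lay between 7.60 and 7.77 and its ATH arrays between 6.33 and 6.92, so the diets were apart. Cyp46a1, the cholesterol 24-hydroxylase, fell by 1.26 ± 0.15 (adjusted p = 0.00609), and Abcd3, the peroxisomal transporter of bile acid precursors, fell by 0.88 ± 0.21 (adjusted p = 0.0401). Acot8, a peroxisomal thioesterase, was the 4th.

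Ch25h, an oxysterol-forming hydroxylase known from macrophages, rose by 2.34 ± 0.55 (limma adjusted p = 0.0397). With the replicate block Ch25h had an adjusted p of 0.0516 and Acot8 of 0.0617, which ends both calls. On the spike-in scale and without scaling, Abcd3 (limma adjusted p = 0.074 and 0.092) and Acot8 (0.38 and 0.77) were not called. The count of 4 lower was 2 after quantile normalization and when any 1 STD mouse, ATH replicate 3 or ATH replicate 4 was left out, and Ch25h kept its call in 1 of the 8 fits with a mouse left out (ATH replicate 2). Hsd17b4, the peroxisomal D-bifunctional protein, had -0.45 ± 0.15 (adjusted p = 0.0919).

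Of 15 genes of the feedback system, 0 passed limma's adjusted p, and 5 had an unadjusted p under 0.05. By the methods' unequal-variance test, which called only 22 of all probes, 0 passed. Of the 15 values, 13 were below 0, with a median of -0.39. Called lower were 3 with normexp background correction, 2 without STD replicate 2 and 1 without ATH replicate 2. Nr1h4, the bile acid receptor FXR, had a log2 fold change of -0.56 ± 0.24 (limma adjusted p = 0.165). Nr0b2, the repressor that FXR induces, had 0.31 ± 0.27 (adjusted p = 0.465), with STD arrays from 0.82 to 1.94 and ATH arrays from 1.5 to 2.11. The ATH values of Nr0b2 were inside or just above the STD range.

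Of 14 bile acid and sterol transporters, 3 rose, 3 fell and 8 did not pass, with a median of -0.25. Those that rose were Abcg8 and Abcg5, the partners that form the canalicular sterol exporter, and Slc51b, a subunit of the basolateral bile acid exporter. Abcg8 rose by 2.20 ± 0.29 (limma adjusted p = 0.00867), Abcg5 by 2.09 ± 0.37 (adjusted p = 0.0191) and Slc51b by 1.99 ± 0.48 (adjusted p = 0.0427). The diets did not overlap for any of the 3, though for Slc51b the margin was narrow (highest STD -1.26, lowest ATH -1.24). After quantile normalization Slc51b had a limma adjusted p of 0.0527, which ends its call.

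Those that fell were Slco1a4, a sinusoidal uptake carrier (-1.32 ± 0.30, limma adjusted p = 0.0382), Slc10a1, the sodium-dependent uptake carrier (-0.98 ± 0.25, adjusted p = 0.0472), and Abcc3, a basolateral efflux pump (-1.16 ± 0.19, adjusted p = 0.0167). Slc10a1 and Abcc3 were named after their values were seen. With the replicate block the adjusted p was 0.0531 for Slco1a4 and 0.0552 for Slc10a1, which leaves 1 transporter called lower. Slc10a1 also lost its call under quantile normalization, spike-in scaling and no scaling (limma adjusted p = 0.069, 0.0845 and 0.0875). The lower calls were 0 without STD replicate 3 and 1 when any other STD mouse, ATH replicate 3 or ATH replicate 4 was left out. The higher calls were 1 without STD replicate 3 or ATH replicate 4 and 2 when any other single mouse was left out. Of 16 peroxin genes, which build the organelle where the side chain is shortened, 3 fell and 0 rose, with a median of -0.41. The 3 became 0 without STD replicate 1 or 3 or ATH replicate 3 or 4, 1 without STD replicate 4 or after quantile normalization, and 6 with normexp background correction.

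**Figure D4:**
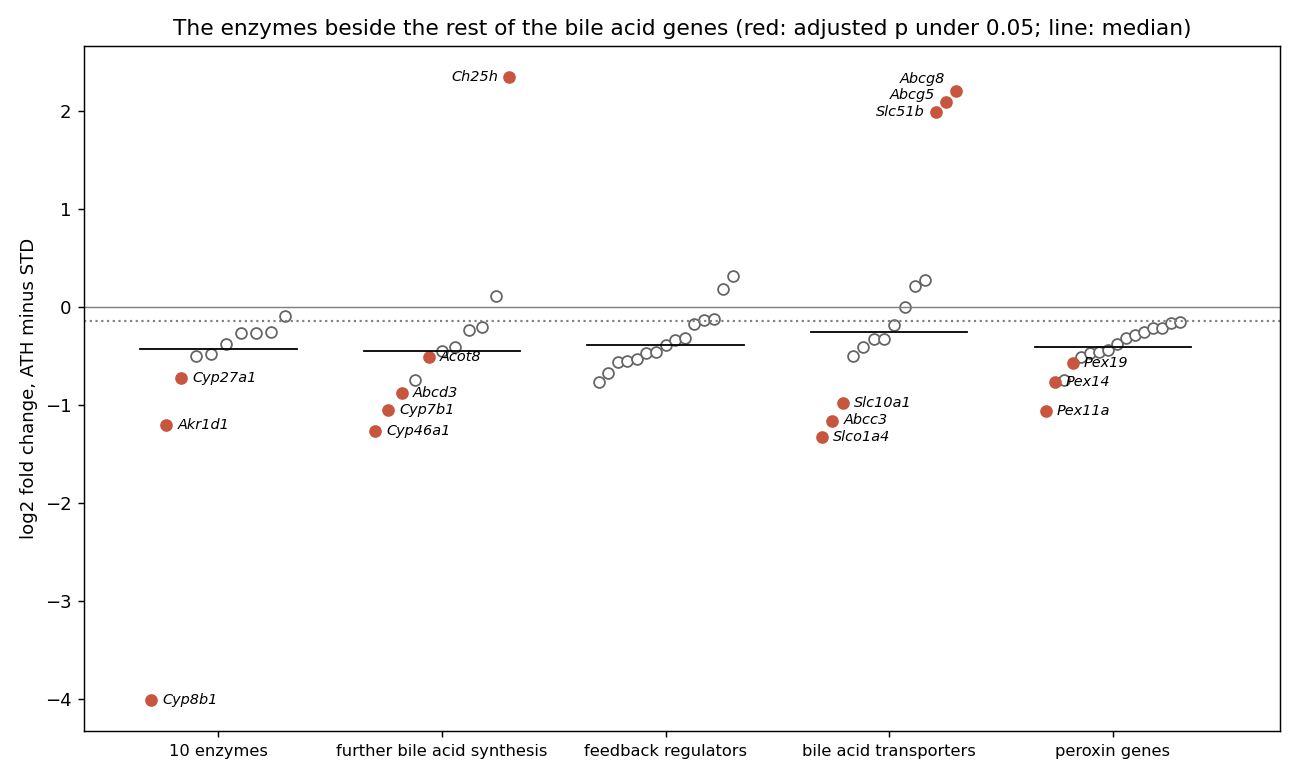
Log2 fold change between diets (y axis, ATH minus STD) of the 10 enzymes and of 4 further lists (x axis), 1 point per gene at its brightest probe. Red points have a limma adjusted p under 0.05, open points do not, the short line is the list's median and the dotted line the median of all genes. Cyp8b1 lies below every other gene shown, and the 3 transporters that rose lie near 2.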

How the data were processed

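Liver RNA from 4 STD and 4 ATH mice was hybridised to Agilent 1-colour arrays. The authors scanned the slides with Agilent Feature Extraction 9.5 at its defaults, and the deposited intensity values were background-subtracted and detrended by that program. The deposited log2 values, made by the authors in GeneSpring, served as an alternative. All 13 probes carried the gene's symbol in the files.

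Spots flagged as outliers were left out and spots of a probe averaged. Probes detected on at least 3 of 4 arrays of either diet were fitted with limma 3.58.1 in R 4.3.3 (lmFit and eBayes, diet as the only term, two-sided). The array number limits the precision, and p-values describe the spread between single mice. On simulated data for this comparison with 31049 probes, 83.5% of 200 probes shifted by 2 log2 units were recovered, and 6 of 173 calls were false. The simulated probes were independent, with the same SD in both diets. Smaller shifts, such as those of every enzyme but Cyp8b1, were not simulated, so the recovery rate does not apply to them. Pairs of genes and of probes were compared by exact permutation of within-array differences (Python 3.11.15, scipy 1.17.1).

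The enzymes and gene lists were chosen with earlier results of these data known. Of the lists of further synthesis enzymes, feedback genes and transporters, up to 4 called genes with the largest change were named, and Nr1h4, Nr0b2, Cyp7b1 and Hsd17b4 whatever their value. Endothelial markers had 1 of 8 genes called higher and lymphocyte markers 0 of 10, with 4 higher and 1 lower at an unadjusted p under 0.05. Same-numbered arrays of the 2 diets held the same position on their slides, and their deviations from the group means correlated at r = 0.10, 0.23, 0.18 and 0.18, each over 0.1, so the number was taken to pair them and was tried as a block. These r are across probes, which are not independent. Scalings, background correction, filters, the methods' unequal-variance test and each mouse left out were the other alternatives.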

Additional observations from a re-analysis of the deposited data

How the results depend on the processing

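The 3 enzymes called lower became 1 with spike-in scaling, no scaling or ATH replicates 3 and 4 left out, 0 at the 1% rate or by the methods' unequal-variance test, and 0 to 3 with 1 mouse left out. None was called higher under any setting tried (0). Their median log2 fold change moved from -0.427 to -0.105 (quantile), -0.116 (spike-in), 0.020 (no scaling) and -0.079 (ATH replicates 3 and 4 left out), and ranged from -0.535 to -0.233 with 1 mouse left out. Of all probes, 2483 were called, against 6394 with normexp background correction, 7366 without scaling, 1086 without the detection filter, 22 by the unequal-variance test, 1322 with the replicate block, 214 without ATH replicates 3 and 4, 164 at 1%, and 394 (STD replicate 3 left out) to 3979 (ATH replicate 2 left out). The replicate block changed no call of an enzyme other than Akr1d1. With normexp, quantile normalization, the authors' values or 1 mouse left out, 0 pairs of enzymes passed. These 0 pairs carry little weight, since a pair could pass only if most of the 45 pairs reached the smallest p. With the replicate block, labels are exchanged within 4 pairs and the exact test cannot reach 5%, so its 0 pairs say nothing.

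Signs turned for small differences. Under quantile normalization, spike-in scaling and no scaling the log2 fold change was 0.06, 0.04 and 0.18 for Hsd3b7, 0.17, 0.22 and 0.35 for Acox2, 0.10, 0.06 and 0.19 for Scp2, and 0.03, 0.05 and 0.18 for the brighter Baat probe. Without scaling it was 0.07 for Amacr and 0.08 for the dimmer Baat probe. With ATH replicates 3 and 4 left out it was 0.19 for the brighter Cyp7a1 probe, 0.14 for Hsd3b7, 0.12 for Acox2 and 0.07 for Scp2. Cyp8b1 kept its direction under all 21 alternatives and its call under 19, Cyp27a1 its call under 11 and Akr1d1 under 10. Slc27a5 passed with normexp background correction (-0.48, limma adjusted p = 0.0402) and under no other alternative.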
